A study of Mus musculus with 6 samples.

Results

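Chemokine receptors are seven-helix, G protein-coupled receptors that steer lymphocytes along gradients of chemokines, small secreted proteins made by tissues and by other immune cells. A regulatory T (Treg) cell, the Foxp3-expressing CD4 T cell that restrains immune responses, reaches a lymphoid follicle, the gut, the skin or an inflamed site partly through the receptors on its surface. Cdc42 is a small GTPase that organises actin and cell polarity in migrating cells. The genes described here are 9 receptors of this family linked to homing into tissues and follicles: Ccr2, Ccr4, Ccr6, Ccr8, Ccr9, Cxcr3, Cxcr4, Cxcr5 and Cxcr6. They were found by symbol among the 14608 genes of the deposited tables, where all 9 were present, and 9 of 9 passed the filter on low values.

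RNA was sequenced from Treg cells of mouse spleen, sorted as CD4 and YFP double-positive cells, in 6 libraries from 6 mice. There were 2 libraries of wild-type mice (WT), 2 of mice heterozygous for a Cdc42 knockout (Cdc42+/-) and 2 of mice homozygous for it (Cdc42-/-). The strain, age, the YFP allele and the promoter or cell type that drives the deletion are not given in the sources used here. Values are RPKM, reads scaled by gene length and by library size, so they can be compared between genes, and every receptor rested on 51 to 1710 reads in a library.

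The libraries held between 8556576 and 17796100 reads in genes, and Cdc42 RNA lay between 122 and 173 RPKM in all of them, with no difference past the threshold, so genotype is known from the labels alone. Xist, the RNA that silences an X chromosome in female cells, was at 0.199 and 1.13 RPKM in the WT libraries, 99.3 and 93.3 in the heterozygous and 87.4 and 21.2 in the homozygous ones. Y-linked Ddx3y was at 37.7 and 42.4, 0.126 and 0, and 0.0974 and 27.5 RPKM in the same order. Sex and genotype therefore cannot be told apart between WT and Cdc42+/-. Cdc42-/- replicate 1 had the pattern of Cdc42+/-, and Cdc42-/- replicate 2 held RNA of both genes. No Cdc42-/- library thus matched WT, and sex and genotype cannot be separated in that comparison either. This limit applies to every gene compared with WT. The T cell and Treg markers Cd3d, Cd3e, Cd3g, Cd4, Foxp3, Il2ra, Ctla4 and Ikzf2 were well above 0 in every library and summed to 1872 and 1811 RPKM in the WT libraries, 1842 and 1748 in the heterozygous and 1409 and 1141 in the homozygous ones. Replicate 2 of Cdc42-/- stood apart. Its 12 myeloid markers summed to 1256 RPKM, against 16.6 to 32.7 RPKM in the other 5 libraries, and its 7 neutrophil markers summed to 519 RPKM against 15.5 to 57.1 RPKM. Of the 12 myeloid markers, 0 were at 0 in that library. Its Foxp3 level was 58.4 RPKM, against 103 to 131 RPKM elsewhere. In bulk RNA, fewer cells of a type and less RNA per cell cannot be told apart.

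In WT cells the receptors spanned 2.21 to 33.3 RPKM. Cxcr3, the receptor for the interferon-induced chemokines CXCL9, CXCL10 and CXCL11, was the highest at 33.3 ± 2.22 RPKM (SD, n = 2). Cxcr5, which guides cells into B cell follicles along CXCL13, followed at 29.6 ± 1.56 RPKM, and Ccr8, a receptor of activated and tissue Treg cells, at 17.1 ± 0.218 RPKM. The libraries of these 3 genes did not overlap with those of the next in the order. Cxcr4, Ccr6, Ccr4 and Cxcr6 lay between 9.05 and 13.3 RPKM, and each overlapped its neighbour in that order. Ccr9 and Ccr2 were the lowest.

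In Cdc42-/- cells Cxcr4 was the highest of the 9 in both libraries, and Ccr6 and Cxcr5 were among the 3 lowest means. In this genotype each receptor overlapped the next in the order. The levels of the 9 receptors summed to 137 and 127 RPKM in the WT libraries, 178 and 188 in the heterozygous and 254 and 213 in the homozygous ones. Cxcr4 made up 11.0% and 9.20% of that sum in the WT libraries, 13.6% and 13.0% in the heterozygous and 31.7% and 25.6% in the homozygous ones. Cxcr5 went the other way in the same sums, from 22.5% in both WT libraries to 6.30% and 2.50% in Cdc42-/-.

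**Figure D1:**
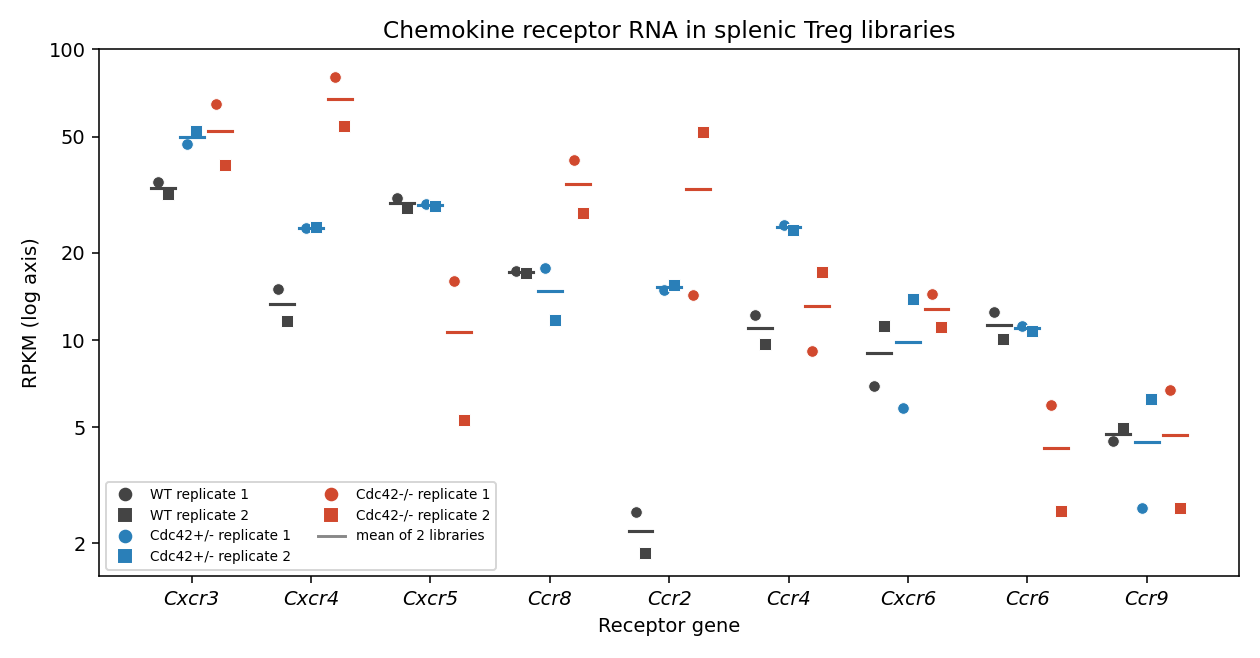
RPKM (log axis) of the 9 receptors in each library, with circles for replicate 1, squares for replicate 2, colours for genotype and bars for the mean of 2 libraries. Cxcr4 sits at 11.7 to 15.0 RPKM in WT and at 54.4 to 80.6 RPKM in Cdc42-/-, while Cxcr5 sits at 28.5 to 30.7 RPKM in WT and at 5.32 to 16.0 RPKM in Cdc42-/-.

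**Figure D2:**
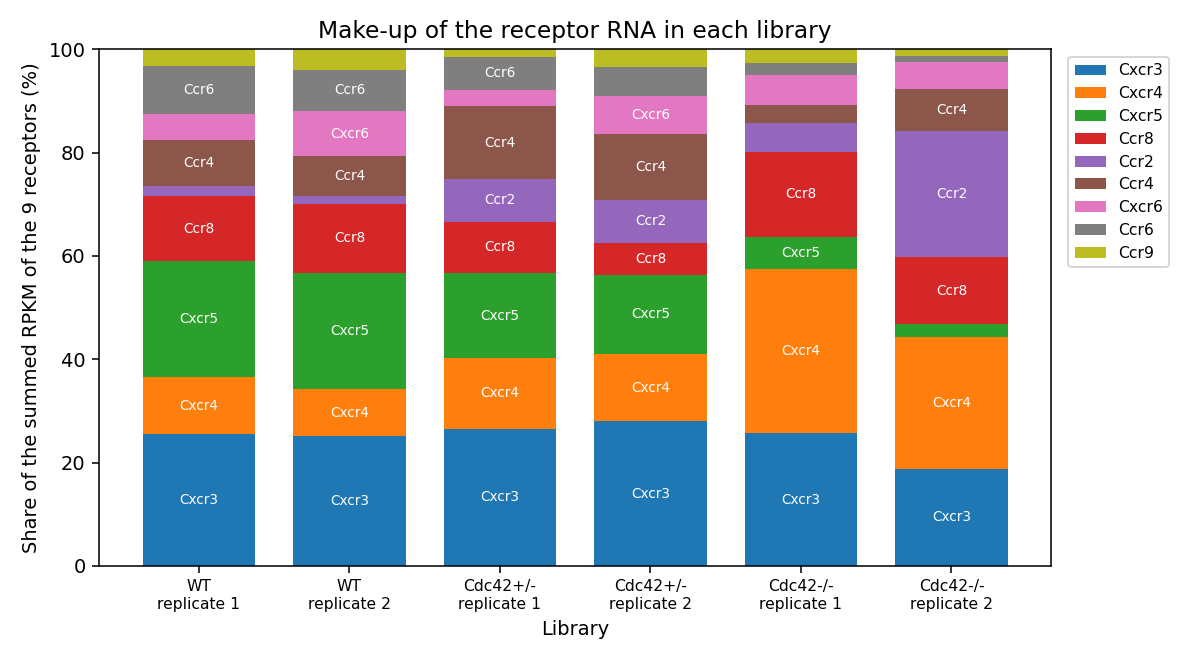
Share of the summed RPKM of the 9 receptors (percent, y axis) held by each receptor in each library (x axis). Cxcr3 and Cxcr5 fill the largest shares in WT, and Cxcr4 fills 31.7% and 25.6% in the Cdc42-/- libraries.

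Across genotypes, differences were tested with limma on log2(RPKM + 1) over 12233 genes, with Benjamini-Hochberg adjustment over all of them and a threshold of 0.05. This scale understates changes of low genes. The SE of a gene is shared by the comparisons, so that of Cdc42+/- against WT also holds the scatter of Cdc42-/-. Between Cdc42-/- and WT, 2 of 9 receptors passed, Ccr2 and Cxcr4, both higher, where 11.4% of all genes tested passed, 6.86% as higher and 4.57% as lower. Between the knockout genotypes, 2 of 9 passed, Cxcr4 and Ccr8, both higher in Cdc42-/-, where 8.22% of all genes did, 4.68% as higher and 3.54% as lower. Between Cdc42+/- and WT, 0 of 9 passed with limma or with voom, as did 0 of all genes with limma (0%). An unadjusted p below 0.05 was reached by 4, 6 and 5 of the 9 receptors for Cdc42+/- and Cdc42-/- against WT and for Cdc42-/- against Cdc42+/-, where 4.32%, 29.3% and 27.1% of all genes reached it. The libraries of the genotypes did not overlap for 4, 6 and 5 of the 9, and for 43.2%, 56.0% and 59.0% of all genes. On the log2 scale the median difference of the 9 receptors was 0.04, 0.47 and 0.05 in the same order, and that of all genes tested was 0.03, 0.01 and -0.01.

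In the authors' deposited table, 4 of 9 receptors had an adjusted p under 0.05 for the heterozygous libraries, where 2.28% of all genes did, 1.72% as higher and 0.561% as lower. The 4 in the authors' deposited table were Ccr2, Ccr4, Cxcr3 and Cxcr4, all higher than in WT. For the homozygous libraries the authors' deposited table has 3 of 9, Ccr2 and Cxcr4 as higher and Cxcr5 as lower, where 8.66% of all genes passed, 6.0% as higher and 2.66% as lower. The comparisons share libraries, so they are not independent of each other.

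**Figure D3:**
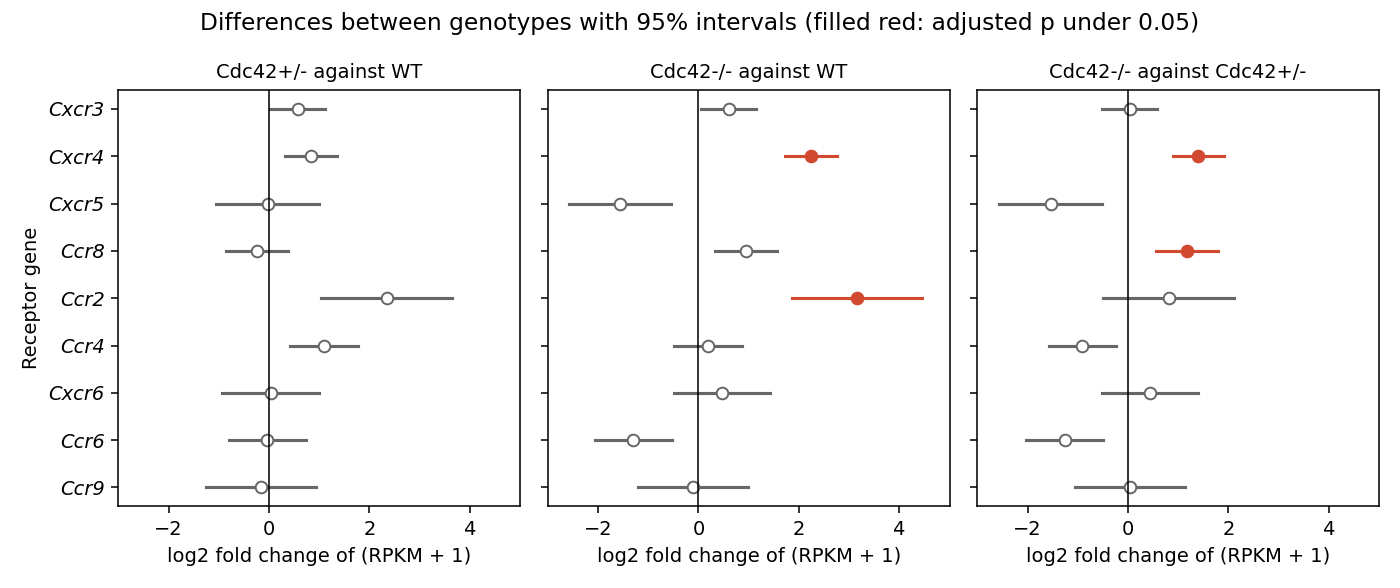
Log2 fold change of (RPKM + 1) of each receptor with its 95% interval from limma (the interval given for any difference in the text), for the 3 comparisons; filled red points have an adjusted p under 0.05. Cxcr4 is filled in both comparisons of Cdc42-/-, at 2.24 and 1.40, Ccr2 is filled against WT at 3.16 and Ccr8 against Cdc42+/- at 1.18.

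Cxcr4 (gene ID 12767, GRCm38.p6 chr1:128588199-128592299, minus strand) encodes the receptor for CXCL12, which holds lymphocytes and blood progenitors in bone marrow and lymphoid stroma. It measured 15.0 and 11.7 RPKM in the WT libraries, 24.3 and 24.5 in the heterozygous and 80.6 and 54.4 in the homozygous ones. The 3 genotypes did not overlap, and the heterozygous libraries lay between the others. Against WT, Cxcr4 rose 5.06-fold in mean RPKM in Cdc42-/- (log2 fold change 2.24, SE 0.21, limma adjusted p 0.00301). Against Cdc42+/- it rose 2.77-fold (1.40, SE 0.21, limma adjusted p 0.0170). The difference of Cdc42+/- from WT was 0.83 (SE 0.21, interval 0.32 to 1.35), with a limma adjusted p of 0.623. The authors' deposited table lists Cxcr4 with an adjusted p of 4.92e-05 for Cdc42+/- against WT and 1.06e-11 for Cdc42-/- against WT. The call against WT held in 15 of 15 alternative analyses, while that against Cdc42+/- was lost with only these genotypes in the fit (adjusted p 0.0526) and without any one of the 4 WT and Cdc42+/- libraries (0.0518 to 0.163). Between the Cdc42-/- libraries Cxcr4 was higher in replicate 1, and without replicate 2 the log2 fold change against WT was 2.52. The myeloid sum was 25.8 RPKM in replicate 1 and 1256 RPKM in replicate 2, or 25.1 and 1192 RPKM without Cybb, against 4.75 and 10.3 RPKM without Cybb in WT. The part of these markers in the Cxcr4 values was not tested.

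Ccr8 (gene ID 12776, chr9:120092133-120094906, plus strand) encodes the receptor for CCL1. It measured 17.3 and 17.0 RPKM in the WT libraries, 17.7 and 11.7 in the heterozygous and 41.6 and 27.5 in the homozygous ones. Both Cdc42-/- libraries were above the other 4. Ccr8 rose 2.35-fold against Cdc42+/- (1.18, SE 0.25, limma adjusted p 0.0441), and its difference from WT was 0.94 (SE 0.25, interval 0.33 to 1.56, adjusted p 0.0648). The latter was 1.23 without Cdc42-/- replicate 2 and 0.65 without replicate 1. The call against Cdc42+/- was lost in 8 of 15 alternatives, among them without either WT library (0.111 in both), without Cdc42+/- replicate 1 (0.133) and without Cdc42+/- replicate 2 (0.272).

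The sequences before the transcription starts of Cxcr4 and Ccr8 are shown because these are the receptors past the threshold whose promoter windows in RefSeq (GRCm38.p6) lay clear of exons once trimmed. The window of Ccr2 lies mostly within its own exons. They cover chr1:128592300-128592549, minus strand, 250 bases, and chr9:120091883-120092113, plus strand, 231 bases, both 5′ to 3′ in the direction of the gene. Capitals mark matches to any of the motifs searched.
Cxcr4: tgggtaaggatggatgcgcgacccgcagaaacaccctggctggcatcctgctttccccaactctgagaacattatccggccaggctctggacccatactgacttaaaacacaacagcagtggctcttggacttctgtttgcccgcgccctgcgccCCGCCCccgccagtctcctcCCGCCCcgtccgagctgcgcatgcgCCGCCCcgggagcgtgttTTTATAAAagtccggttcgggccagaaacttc
Ccr8: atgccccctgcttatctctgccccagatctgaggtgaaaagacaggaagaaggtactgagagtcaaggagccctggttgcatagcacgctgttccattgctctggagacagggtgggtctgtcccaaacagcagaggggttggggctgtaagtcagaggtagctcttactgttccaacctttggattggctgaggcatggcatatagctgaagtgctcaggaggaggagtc

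A search of both strands covered 8 motifs, each given with its share of the 32851 windows of 250 bases in the RefSeq table. The forkhead motif GTAAACA was in 3.17% of these windows, and the AP-1 motif TGANTCA in 6.75%. For the T-box motif AGGTGT the share was 11.8%, and for the E-box CAGGTG it was 17.2%. The cyclic AMP response element TGACGTCA was in 1.55%, and the NFAT core TGGAAA in 18.6%. The GC box GGGCGG was found in 32.7%, and the TATA box TATAAA in 12.4%. The Cxcr4 window held 3 GC boxes and 2 overlapping TATA box matches, one on each strand, and the Ccr8 window held none of the 8. The windows also differed in base composition. That of Cxcr4 had 61.2% G and C and 19 CpG pairs, and that of Ccr8 had 53.7% and 1, where the median window of 250 bases in the table had 52.4% and 6. These matches are a description of letters and not of binding.

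Ccr2 (gene ID 12772, chr9:124101918-124109140, plus strand) encodes the receptor for CCL2, known from inflammatory monocytes and from activated T cells. It measured 2.56 and 1.86 RPKM in the WT libraries, 14.9 and 15.4 in the heterozygous and 14.2 and 52.2 in the homozygous ones. All 4 knockout libraries were above both WT libraries, and only replicate 2 of Cdc42-/- was above the Cdc42+/- pair. Against WT, Ccr2 rose in Cdc42-/- by 3.16 on the log2 scale (SE 0.54, limma adjusted p 0.0175). The call was lost without either WT library (0.110 and 0.138), without either Cdc42+/- library (0.0566 and 0.0561), with only these genotypes in the fit (0.0583) and with voom (0.0599). Without Cdc42-/- replicate 2 the value was 2.26. Between Cdc42+/- and WT the difference was 2.34 (SE 0.54, interval 1.04 to 3.65, limma adjusted p 0.525). It passed in 4 of 15 alternatives, with only these genotypes in the fit (0.00429), with array weights (0.0140) and without either Cdc42-/- library (0.00257 and 0.00314). The authors' deposited table gives Ccr2 an adjusted p of 1.71e-45 in that comparison. Between Cdc42-/- and Cdc42+/- the difference was 0.82 (SE 0.54, limma adjusted p 0.367), and it was -0.09 without Cdc42-/- replicate 2 and 1.72 without replicate 1.

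Of the 12 myeloid markers, 8 were above both WT libraries in all 4 knockout libraries, as Ccr2 was and as 13.1% of all genes tested were. Of the 12, 0 passed the threshold in Cdc42-/- against WT, and their part in the Ccr2 values was not tested. The 8 were Lyz2, Csf1r, Cd68, Itgam, Adgre1, Tyrobp, Mpeg1 and Clec7a, and the other 4, Cd14, Fcgr3, Fcer1g and Cybb, each had a knockout library below a WT level. Lyz2, the lysozyme of macrophages and granulocytes, was listed at 0.119 and 2.65 RPKM for WT, 5.30 and 7.28 for Cdc42+/-, and 9.75 and 600.2 for Cdc42-/-. Tyrobp, a signalling adaptor of myeloid cells, was listed at 0.555 and 1.03, 4.60 and 4.57, and 3.35 and 148 RPKM in the same order. Outside Cdc42-/- replicate 2 the myeloid sum was 16.6 and 22.9 RPKM for WT, 31.1 and 32.7 for Cdc42+/- and 25.8 for Cdc42-/- replicate 1. Cybb made up most of it in WT, at 11.8 and 12.6 RPKM, and was at 0.685 RPKM in Cdc42-/- replicate 1. Without Cybb, a choice made after its values were seen, the 11 others summed to 4.75 and 10.3 RPKM for WT, 18.9 and 22.0 for Cdc42+/-, and 25.1 and 1192 for Cdc42-/-. The rise of Ccr2 over WT in Cdc42-/- replicate 1 is the value of 2.26 given above. Among the receptors outside the group of 9, Cx3cr1 and Ccr1, both known from monocytes and named after their values were seen, were at 11.4 and 6.11 RPKM in replicate 2 of Cdc42-/- and at no more than 0.330 and 0.893 RPKM in the other 5 libraries. Cxcr2, the neutrophil receptor, named in the same way, stayed between 4.27 and 5.85 RPKM in all 6.

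**Figure D4:**
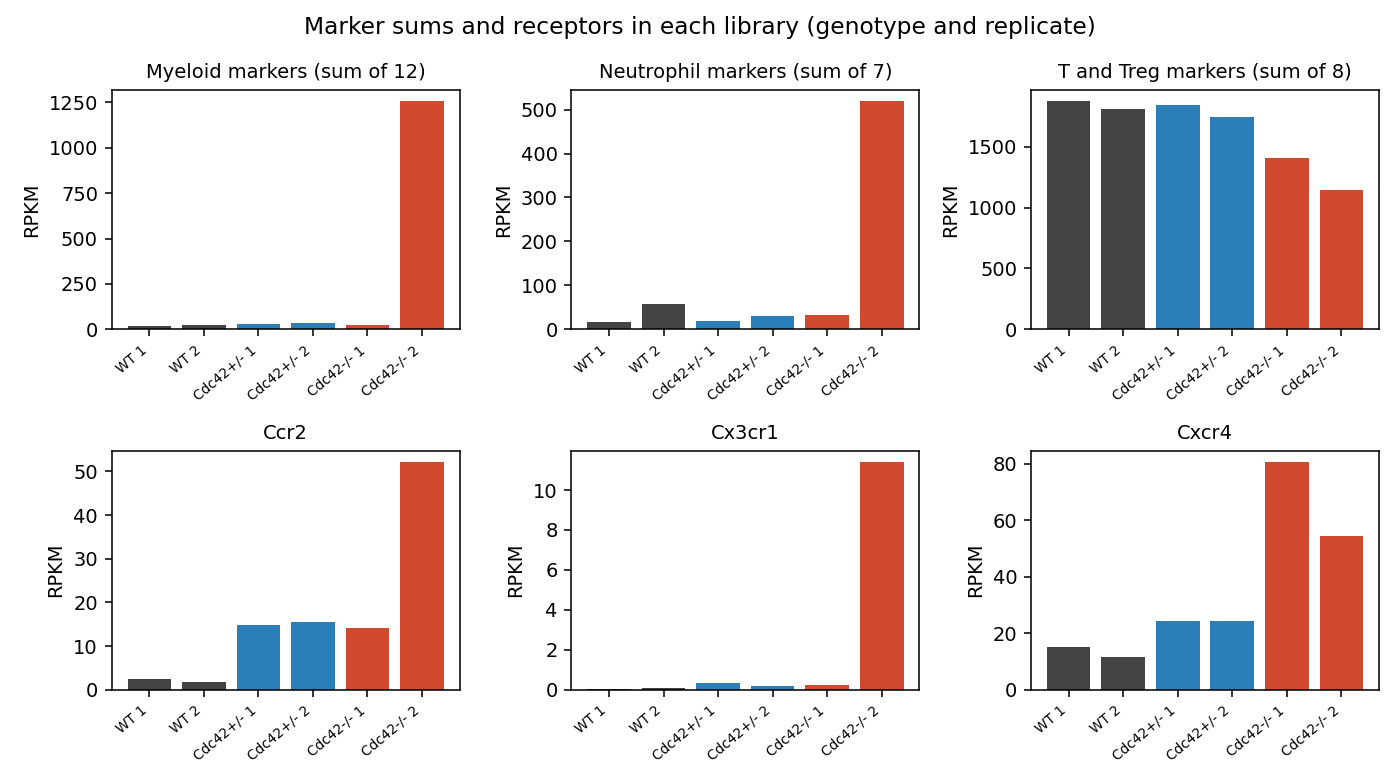
Summed RPKM of myeloid, neutrophil and T cell markers (top) and RPKM of Ccr2, Cx3cr1 and Cxcr4 (bottom) in each library. Myeloid and neutrophil sums and Cx3cr1 are high in Cdc42-/- replicate 2, Ccr2 is above WT in all 4 knockout libraries, and Cxcr4 is highest in Cdc42-/- replicate 1.

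Cxcr5 and Ccr6 had lower values in Cdc42-/- than in the other genotypes, without passing the threshold in the fit of all libraries. Both passed against WT with voom (adjusted p 0.0382 for Cxcr5 and 0.0429 for Ccr6) and with array weights (0.0333 and 0.0457). Cxcr5 (gene ID 12145, chr9:44511787-44526444, minus strand) was at 30.7 and 28.5 RPKM in the WT libraries, 29.4 and 28.8 in the heterozygous and 16.0 and 5.32 in the homozygous ones. The WT and Cdc42+/- libraries lay close together, and both Cdc42-/- libraries were below all 4. The log2 fold change was -1.56 against WT (SE 0.42, limma adjusted p 0.0656) and -1.54 against Cdc42+/- (SE 0.42, adjusted p 0.0792). The value depended on the library: it was -0.85 against WT without Cdc42-/- replicate 2 and -2.28 without replicate 1. Such fits keep 1 Cdc42-/- library, so the difference between its replicates does not enter their spread. The authors' deposited table lists Cxcr5 with an adjusted p of 0.00959 for Cdc42-/- against WT. An exon of Cxcr5 overlaps one of Bcl9l in GENCODE M21, and the strand setting of the counting is not given in the sources used here. Bcl9l was at 19.1 to 22.1 RPKM in WT and at 17.5 and 12.7 RPKM in Cdc42-/- (-0.44, adjusted p 0.162).

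Ccr6 (gene ID 12458, chr17:8236041-8258519, plus strand) encodes the receptor for CCL20, found on cells that home to gut and skin. It stood at 12.5 and 10.1 RPKM in the WT libraries, 11.2 and 10.7 in the heterozygous and 5.96 and 2.57 in the homozygous ones. As with Cxcr5, replicate 2 of Cdc42-/- was the lowest and the WT and Cdc42+/- libraries overlapped. The log2 fold change was -1.30 against WT (SE 0.32, limma adjusted p 0.0516) and -1.26 against Cdc42+/- (SE 0.32, adjusted p 0.0646). Over 15 alternatives 7 gave an adjusted p under 0.05 against WT. Without Cdc42-/- replicate 2 the value was -0.81, and without replicate 1 it was -1.78.

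Cxcr5 and Ccr6 are also known from B cells. The 7 B cell markers summed to 18.5 and 12.7 RPKM in the WT libraries, 22.6 and 19.7 in the heterozygous and 11.0 and 14.9 in the homozygous ones. Of these, 4 of 7 were above 0 in every library, with Cd79b at 7.40 to 13.3 RPKM the most abundant, while Fcrla was at 0 in all 4 WT and Cdc42-/- libraries. Of the 8 T cell and Treg markers, 4 fell in Cdc42-/- against WT and 0 rose with limma, where 4.57% of all genes fell and 6.86% rose. The 4 were Cd3d (adjusted p 0.0379), Cd3e (0.0126), Cd3g (0.00895) and Ikzf2 (0.0311). The other 4 did not pass: Cd4 (0.189), Foxp3 (0.262), Il2ra (0.101) and Ctla4 (0.0524), and of these Ctla4 had the higher level in Cdc42-/-, at 202 and 201 RPKM against 157 and 130.0 in WT. The part of these markers in the values of Cxcr5 and Ccr6 was not tested.

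Ccr4 and Cxcr3 had higher values in the heterozygous libraries than in WT, without passing the threshold. Ccr4 (gene ID 12773, chr9:114490316-114505476, minus strand) encodes the receptor for CCL17 and CCL22, used by skin-homing and Treg cells. It was at 12.2 and 9.72 RPKM in the WT libraries, 24.9 and 24.0 in the heterozygous and 9.15 and 17.1 in the homozygous ones. The Cdc42+/- pair was above all other libraries, and the Cdc42-/- pair spanned the WT range. Against WT, the difference of Cdc42+/- was 1.09 (SE 0.28, interval 0.42 to 1.77, limma adjusted p 0.623) and that of Cdc42-/- was 0.19 (SE 0.28, interval -0.49 to 0.86, adjusted p 0.691). The direct difference of Cdc42-/- from Cdc42+/- was -0.91 (SE 0.28, interval -1.58 to -0.23, adjusted p 0.101), and it passed in 1 of 15 alternatives. It was -1.32 without Cdc42-/- replicate 2 and -0.49 without replicate 1. With only WT and Cdc42+/- in the fit, Ccr4 passed (0.0313), and the authors' deposited table gives it an adjusted p of 8.38e-12 for that comparison. For Cdc42-/- against WT, 1 library set the sign: the value was -0.23 without replicate 2 and 0.60 without replicate 1.

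Cxcr3 (gene ID 12766, chrX:101731535-101734147, minus strand) lies on the X chromosome. It stood at 34.9 and 31.7 RPKM in the WT libraries, 47.3 and 52.5 in the heterozygous and 65.1 and 39.9 in the homozygous ones. Both WT libraries were below the other 4. The log2 fold change was 0.57 (SE 0.23, interval 0.02 to 1.12, limma adjusted p 0.999) for Cdc42+/- and 0.60 (SE 0.23, interval 0.05 to 1.15, limma adjusted p 0.141) for Cdc42-/- against WT. The last value was 0.95 without Cdc42-/- replicate 2 and 0.25 without replicate 1. The authors' deposited table gives an adjusted p of 0.000589 for Cdc42+/- and 0.244 for Cdc42-/-. The 392 X-linked genes tested differed between Cdc42+/- and WT by a median of 0.02 on the log2 scale, and 218 of them were above 0. Between Cdc42-/- and WT their median was -0.04, and 187 of them were above 0. The Xist and Ddx3y levels given above separate the WT libraries from the others in the way that Cxcr3 does, except that Ddx3y was also present in Cdc42-/- replicate 2, and their part in the Cxcr3 values was not tested.

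Ccr9 and Cxcr6 did not pass in any comparison, and their libraries overlapped in each. Ccr9 (gene ID 12769, chr9:123767211-123783457, plus strand), the receptor for CCL25 of the small intestine and thymus, was at 4.49 and 4.97 RPKM in the WT libraries, 2.64 and 6.27 in the heterozygous and 6.75 and 2.64 in the homozygous ones. Within each knockout genotype its replicates differed by more than the means of the genotypes did. Its difference from WT was -0.16 in Cdc42+/- (interval -1.25 to 0.94) and -0.11 in Cdc42-/- (interval -1.21 to 0.99), which leaves room for changes of either direction. Cxcr6 (gene ID 80901, chr9:123806477-123811754, plus strand), the receptor for the membrane-bound chemokine CXCL16, was at 6.94 and 11.2 RPKM in the WT libraries, 5.85 and 13.8 in the heterozygous and 14.4 and 11.1 in the homozygous ones. Its interval against WT ran from -0.93 to 1.00 in Cdc42+/- and from -0.49 to 1.43 in Cdc42-/-. Ccr9 shares exonic bases with Slc6a20a in GENCODE M21, which had at most 0.520 RPKM in any library, and Cxcr6 lies within Fyco1 without sharing an exon.

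Of the 9 receptors, 6 are on chromosome 9, and Ccr9, Cxcr6 and Ccr2 are part of the cluster there that also holds Xcr1, Ccr1 and Ccr3. Ccr3, named after its values were seen, was at 0.346 and 0 RPKM in the WT libraries, 1.93 and 2.09 in the heterozygous and 0.138 and 0.636 in the homozygous ones.

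Among 14 further chemokine receptors, 11 were in the tables and 9 were tested. In Cdc42-/- against WT, 2 rose and 0 fell, where 6.86% of all genes rose and 4.57% fell. Against Cdc42+/- 1 rose and 0 fell, where 4.68% and 3.54% of all genes did. In Cdc42+/- against WT 0 passed. Ccr10 was among the 2 that rose in Cdc42-/- against WT. Ccr10, the receptor for the epithelial chemokines CCL27 and CCL28, had 0 and 1 reads in the WT libraries, 41 and 77 in the heterozygous and 71 and 89 in the homozygous ones, or 1.55 and 2.51 RPKM and 3.72 and 5.65 RPKM in the knockout genotypes (limma adjusted p 0.00558 for Cdc42-/- against WT and 0.388 for Cdc42+/-). The authors' deposited table gives Ccr10 an adjusted p of 3.21e-06 for Cdc42+/- and 2.41e-06 for Cdc42-/-. Ccr7, the lymph node homing receptor, was more abundant than any of the 9, at 110.2 and 116 RPKM in the WT libraries, 91.3 and 106 in the heterozygous and 129 and 82.9 in the homozygous ones (interval against WT -0.64 to 0.38, adjusted p 0.720).

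Of 12 other receptors and adhesion molecules of lymphocyte traffic, 1 rose and 2 fell in Cdc42-/- against WT, where 6.86% of all genes rose and 4.57% fell. Itgae, the αE integrin chain that binds E-cadherin on epithelium, rose from 17.1 and 12.6 RPKM to 37.1 and 36.8 RPKM (1.27, SE 0.19, limma adjusted p 0.0109). Gpr15, a receptor for homing to the large intestine, fell from 7.99 and 4.71 RPKM to 1.96 and 0.849 RPKM (-1.61, SE 0.31, limma adjusted p 0.0262), and it stood at 14.4 and 13.6 RPKM in Cdc42+/-, from which it fell by 2.68 (adjusted p 0.0102). Itga4, the α4 integrin chain of the gut-homing and VCAM-1 receptors, fell from 111 and 98.0 RPKM to 28.9 and 59.2 RPKM (-1.31, SE 0.31, limma adjusted p 0.0457), and by 1.50 against Cdc42+/- (adjusted p 0.0387). S1pr1, which serves exit from lymph nodes, did not pass, with a difference from WT of -0.14 (adjusted p 0.676) in Cdc42-/-. In Cdc42+/- against WT, 0 of the 12 passed.

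Of 33 chemokine genes, 22 were in the tables and 14 were tested, and 0 passed in any comparison with limma. At an unadjusted threshold of 0.05 there was 1 of 14 for Cdc42+/- against WT, where 4.32% of all genes reached it. There were 0 for Cdc42-/- against WT and 0 against Cdc42+/-, where 29.3% and 27.1% of all genes did.

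Downstream of the receptors, 29 of 31 genes for G protein subunits, arrestins, receptor kinases, RGS proteins and Rac or Rap activators were tested. Compared with WT, 4 of 29 rose and 5 fell in Cdc42-/-, where 6.86% of all genes rose and 4.57% fell. Compared with Cdc42+/-, 0 rose and 4 fell, where 4.68% of all genes rose and 3.54% fell. RGS proteins speed the shut-off of G protein signals. Rgs10 fell from 176 and 199 RPKM in WT to 73.3 and 88.3 RPKM (-1.21, SE 0.13, limma adjusted p 0.00405), Rgs1 from 203 and 217 RPKM to 88.3 and 121 RPKM (-1.02, SE 0.16, adjusted p 0.0135), and Rgs3 from 22.9 and 20.7 RPKM to 9.77 and 12.9 RPKM (-0.90, SE 0.16, adjusted p 0.0213). Rgs1 stood at 124 and 119 RPKM in Cdc42+/-, between the others in mean. Gnb2, a G protein β subunit, rose from 115 and 126 RPKM to 175 and 202 RPKM (0.64, SE 0.12, adjusted p 0.0214). Dock2, the Rac activator of lymphocyte migration, did not pass (0.12 against WT, SE 0.19, adjusted p 0.698).

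Of 14 transcription factors linked to receptor programmes, 4 rose in Cdc42-/- against WT and 0 fell, where 6.86% of all genes rose and 4.57% fell. Against Cdc42+/- 4 rose, where 4.68% of all genes did. Prdm1, a factor of effector Treg cells, was at 4.88 and 3.37 RPKM in WT and at 15.1 and 15.8 RPKM in Cdc42-/- (1.70, SE 0.19, limma adjusted p 0.00443). Irf4 went from 15.5 and 14.2 RPKM to 29.8 and 33.3 RPKM (1.04, adjusted p 0.0107), Batf from 50.5 and 57.0 RPKM to 83.2 and 93.3 RPKM (0.71, adjusted p 0.0342), and Klf2, which keeps T cells in circulation, from 121 and 122 RPKM to 282 and 207 RPKM (0.98, adjusted p 0.0192).

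The genes most like each receptor past the threshold were found by Pearson's r on log2(RPKM + 1) over the 6 libraries, which fall into 3 genotypes. For Cxcr4 they were Urb2 (r = 0.996) and Dennd2c (0.995), for Ccr8 Iigp1 (0.986) and Ccsap (0.986), and for Ccr2 Fbxl2 (0.997) and Pxn (0.997). Iigp1, an interferon-induced GTPase, had 62.7 and 65.8 RPKM in the WT libraries, 56.1 and 40.2 in the heterozygous and 136 and 91.5 in the homozygous ones. Pxn, the adhesion adaptor paxillin, moved over a narrow range, from 24.4 to 29.6 RPKM. These values of r describe the 6 libraries and carry no test.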

How the data were processed

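Gene tables of the authors for 6 libraries of sorted splenic Treg cells were used, 1 per knockout genotype against WT. TopHat and mm10 are named in the submitters' processing notes. The counting tool, annotation and strand setting are not given in the sources used here. The library columns hold RPKM computed by the authors, a unit worked out from the deposited values. The tables also hold group means (a deposited signal, reads over size factors), and a fold ratio, log2 fold change and p-value per gene from the authors' unnamed test. From RPKM and group means, whole reads and gene lengths were recovered for 100% of values (tolerance 0.001). There were 0 columns of unknown sample.

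limma 3.58.1 (R 4.3.3; lmFit, eBayes with trend) was run on log2(RPKM + 1) of the 12233 genes whose mean reached 0.5 RPKM, all 6 libraries in 1 fit, without the replicate number, two-sided. The limma step was tried on data simulated with the same scatter in every library, which does not cover the larger spread of Cdc42-/-. An exact permutation test of 2 against 2 libraries cannot go below 0.333 and was not used. Alternatives were the pseudocount, the filter, the libraries fitted, array weights, upper-quartile scaling, voom on recovered reads, a replicate block and leaving out each library.

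The receptors, lists and tests were chosen with earlier results of these data known. Named were the 9 receptors, up to 4 members per list past the threshold in Cdc42-/- against WT, and genes set by name (Ccr7, Ccr10, S1pr1, Gpr15, Rgs1, Dock2). Some members of the lists are not reported here. Markers of dendritic, CD8 and NK, and erythroid cells summed to at most 6.86, 14.2 and 24.8 RPKM, each highest in Cdc42-/- replicate 2. Positions and promoters are from RefSeq (GRCm38.p6), with 8 of 9 receptors in the promoter table.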

Additional observations from a re-analysis of the deposited data

How the results depend on the processing

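Each comparison was refitted under 15 alternatives. The count of receptors past the threshold in Cdc42+/- against WT was 2 with only the genotypes compared, where 60 of all genes passed. With array weights it was 3, where 88 of all genes did. In Cdc42-/- against WT it was 1 with only the genotypes compared, 4 with array weights, 4 with the replicate block, and 1 to 6 with each library left out. In Cdc42-/- against Cdc42+/- it was 1 without a filter, 0 with only the genotypes compared, 1 with upper-quartile scaling, and 0 to 5 with each library left out. Replicates scattered most in Cdc42-/-: half-way through the ranked genes the SD (log2 scale) was 0.216, against 0.115 in WT and 0.0835 in Cdc42+/-. The fit of all libraries pools this scatter, and the SE of Ccr2 was 0.54 in each comparison. The SE of Cdc42+/- against WT thus does not reflect these 2 genotypes alone. The part of this scatter in the changes of the counts was not tested. Where a genotype kept 1 library, that library was assumed to vary like the others.

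Signs changed for some receptors. For Cxcr3 in Cdc42-/- against Cdc42+/- the value was -0.020 with upper-quartile scaling. The other changes came from leaving out 1 library, over which the values ran as follows. In Cdc42+/- against WT they ran from -0.18 to 0.11 for Ccr6 and from -0.075 to 0.029 for Cxcr5 (both positive without WT replicate 1), from -0.51 to 0.045 for Ccr8, from -0.65 to 0.34 for Ccr9, and from -0.52 to 0.59 for Cxcr6. In Cdc42-/- against WT they ran from -0.23 to 0.60 for Ccr4 and from -0.65 to 0.44 for Ccr9. In Cdc42-/- against Cdc42+/- they ran from -0.086 to 1.72 for Ccr2, from -0.50 to 0.59 for Ccr9, from -0.32 to 0.38 for Cxcr3, and from -0.12 to 0.99 for Cxcr6. None of these had an adjusted p under 0.05 in the fits that changed their sign. With voom, 1 of all genes passed in Cdc42+/- against WT, and 60 did with only these genotypes fitted.

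Deviations of same-numbered libraries correlated at 0.02 for WT and Cdc42+/-, 0.20 for WT and Cdc42-/-, and -0.03 for Cdc42+/- and Cdc42-/-, over 12233 genes. With 2 libraries per genotype, these values cannot tell whether the replicate numbers pair the samples. With the replicate block, Ccr6 and Ccr8 joined Ccr2 and Cxcr4 against WT (adjusted p 0.0382 and 0.0363), and 1144 of all genes passed in place of 1398. With the block, 0 receptors passed in Cdc42+/- against WT and 3 in Cdc42-/- against Cdc42+/-.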
